A study of Mus musculus with 10 samples.

Results

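The 10 genes described here encode the core of de novo lipogenesis, the making of fatty acids from glucose and other small carbon sources. They were chosen by name for their place in the pathway, though with earlier results of these data known. Fasn, Acaca, Acacb, Acly, Acss2 and Me1 encode enzymes, Mid1ip1 a regulator of one of these enzymes, and Srebf1, Mlxipl and Nr1h3 transcription factors. All 10 were found among the 41249 gene identifiers of the count tables, and all 10 were among the 13739 genes that reached the level set for testing, a mean above 1 CPM, counts per 1e6 counts of the library, over the mice. They were measured by RNA sequencing of whole interscapular brown adipose tissue (iBAT) from 5 Axl KO and 5 WT male C57BL/6 mice, littermates from heterozygous breeding. Per the labels, all mice had been fed a high-fat diet (HFD) for 24 weeks, starting at an age of 6 to 8 weeks, whereas the study's text gives a slightly longer diet for these mice and a later start. The KO mice carried a constitutive, whole-body allele with a LacZ and Neo cassette and a splice acceptor inserted in Axl, a receptor tyrosine kinase, so the receptor was targeted in every cell type and not in adipocytes alone. Neither a chow-fed group nor a sample from before the diet was analysed here. Nothing in the labels ties mice to a litter or cage, so no test takes these into account. The p-values for genotype set the difference between groups against the spread between these mice.

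De novo lipogenesis starts with acetyl-CoA in the cytosol. ATP citrate lyase (Acly) makes it from citrate and acetyl-CoA synthetase (Acss2) from acetate. Acetyl-CoA carboxylase turns it into malonyl-CoA, and fatty acid synthase (Fasn) builds palmitate from these units with NADPH, part of which malic enzyme (Me1) supplies. Transcription of the pathway is driven by SREBP-1 (Srebf1), which is processed in response to insulin, by the carbohydrate-responsive factor ChREBP (Mlxipl) and by the oxysterol receptor LXRα (Nr1h3). Brown fat is a tissue of high lipogenic activity, where newly made fatty acids are burned as well as stored.

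In the GENCODE M21 annotation of GRCm38, 4 of the genes are on chromosome 11: Fasn (chr11:120805846-120824547, reverse strand), Acaca (chr11:84129672-84401651, forward), Acly (chr11:100476353-100528000, reverse) and Srebf1 (chr11:60199089-60222581, reverse). Acacb (chr5:114146535-114250761) and Mlxipl (chr5:135089890-135138382), both forward, are on chromosome 5, and Acss2 (chr2:155517948-155585724, forward) and Nr1h3 (chr2:91184061-91202834, reverse) on chromosome 2. Me1 is at chr9:86581371-86695953 (reverse) and Mid1ip1 at chrX:10715013-10719690 (forward). The tables hold 1 count per gene, so isoforms of a gene are not separated.

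The tables held between 5431014 and 9580215 counts per mouse. Axl itself was detected with 3 to 15 counts in the KO libraries and 224 to 383 in the WT libraries (1.57 ± 0.646 against 43.1 ± 5.86 CPM, mean ± SD, n = 5 each), and all mice matched their labels. The adipocyte and brown adipocyte markers set for the tissue were detected, with Ucp1 means of 5561 CPM in KO and 4119 CPM in WT iBAT. Axl was 1 of 13739 genes to pass an adjusted p of 0.05 in edgeR's quasi-likelihood test. Mice of the same genotype differed by 14.8% (the biological coefficient of variation in edgeR). The median log2 fold change over all genes tested was -0.00059. TMM normalization sets most genes near 0, so this median cannot show whether a shift was needed.

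As a group the lipogenesis genes are abundant in HFD-fed iBAT, largely through Fasn. Together they took 1.37% of all counts in the mouse with least (WT 3) and 3.98% in the mouse with most (WT 1). Fasn alone took 0.832% in WT 3 and 2.86% in WT 1. The least abundant member in CPM in these mice differed: Mid1ip1 in WT 3, at rank 4256 among all genes, and Nr1h3 in WT 1, at rank 2182. Per exon length (RPKM, CPM divided by the length in kilobases of the gene's merged exons), Fasn was the highest at 1483 ± 552 RPKM (SD, n = 10 mice), followed by Acly at 463 ± 161, Acacb at 192 ± 39.5 and Acaca at 125 ± 42.6. Next came the transcription factor Srebf1 at 74.6 ± 12.1 RPKM and Me1 at 66.8 ± 19.6. Mid1ip1, Acss2, Nr1h3 and Mlxipl formed the lower end, between 34.3 and 30.6 RPKM. Fasn exceeded Acly, Acly exceeded Acacb, and Acaca exceeded Srebf1 in all 10 mice, whereas Acacb exceeded Acaca in 9. Srebf1 exceeded Me1 in only 6 of 10 mice, and the 4 genes at the lower end could not be ordered, each exceeding the next in 5 to 7 mice. Acacb encodes the carboxylase at the mitochondrial surface whose malonyl-CoA restrains fatty acid oxidation, and Acaca the cytosolic isoform that feeds synthesis. Their order rests on the exon lengths, 9632 bases for Acacb and 17074 for Acaca, since in CPM the mean of Acaca was the higher one in both genotypes.

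None of the 10 genes passed the adjusted threshold between Axl KO and WT mice, where 0.00728% of all genes tested did, and their adjusted p-values lay between 0.571 and 0.981 (edgeR). At an unadjusted p of 0.05 the test called 1 of 10, Nr1h3, beside 8.4% of all genes (4.54% higher and 3.86% lower in KO mice), and DESeq2 called the same gene. The fitted value was higher in KO mice for 3 genes and lower for 7. The median log2 fold change of the 10 was -0.074. In no member were the normalized counts of the groups free of overlap, which 1.35% of all genes tested showed.

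**Figure D1:**
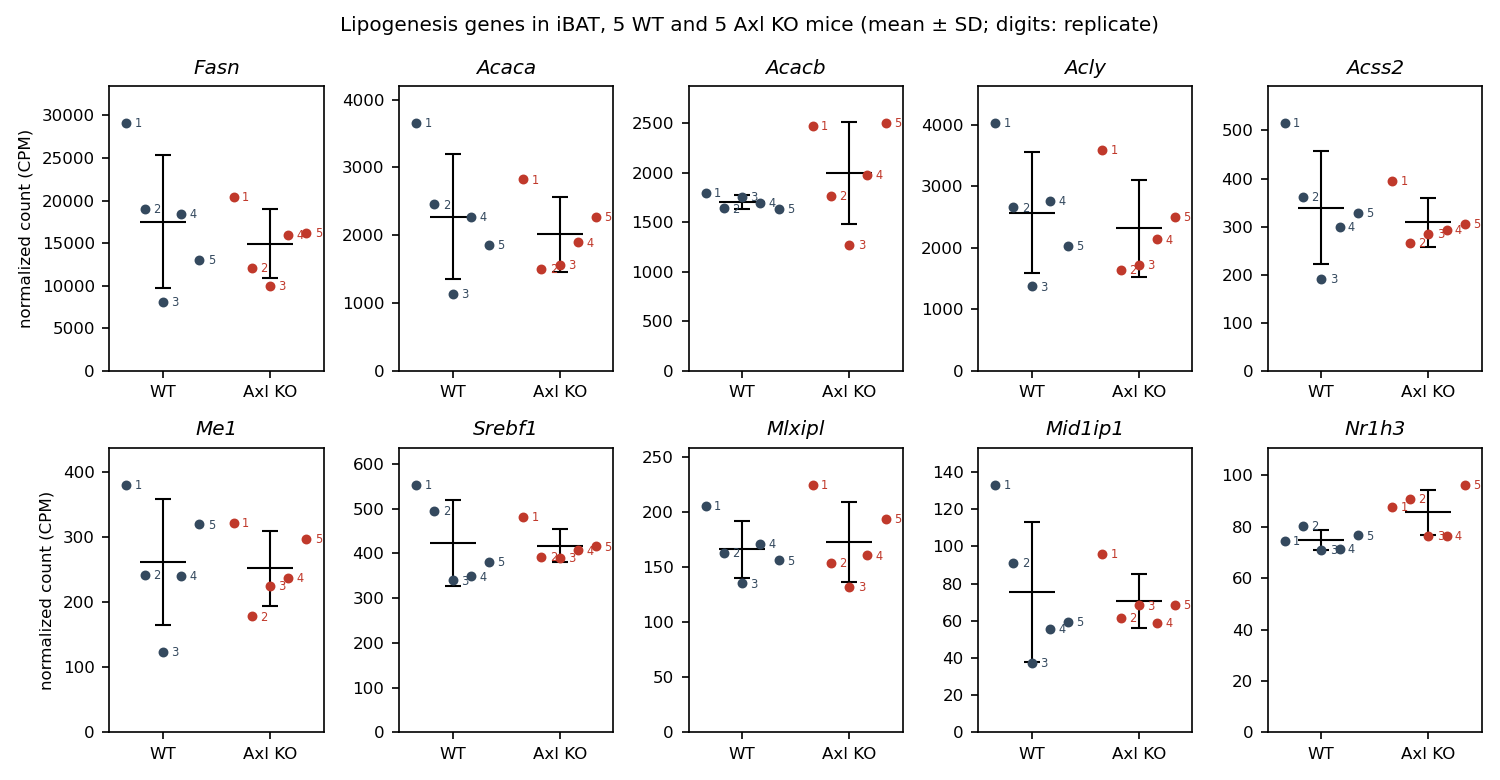
Normalized counts (CPM, linear axes from 0) of the 10 lipogenesis genes in iBAT of 5 WT (dark) and 5 Axl KO (red) mice. Each point is a mouse with its replicate number, and bars give mean ± SD. Most panels have WT 1 at the top and WT 3 at the bottom, the narrow WT group of Acacb stands beside a wide KO group, and the groups overlap in every panel.

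Fasn, the synthase, had 20384, 12105, 9977, 16007 and 16248 CPM in Axl KO mice 1 to 5 and 29083, 18983, 8055, 18476.5 and 13036 CPM in WT mice 1 to 5. WT mice held both the highest and the lowest value, and the 5 KO values lay between these. The mean was 14944 ± 4036 CPM in KO and 17526.5 ± 7849 CPM in WT mice (SD, n = 5 each), a fold of 0.853 with a 95% interval of 0.557 to 1.31 (log2 fold change -0.23, SE 0.28, edgeR adjusted p = 0.836). A change of up to a 1.31-fold increase or a drop to 0.557 of the WT level therefore lay inside the interval. The two-sided exact permutation test over the mice gave p = 0.548.

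Acetyl-CoA supply showed the same picture. Acly was measured at 3588, 1647, 1723, 2139 and 2499 CPM in KO mice 1 to 5 and at 4028, 2659, 1372, 2769 and 2029 CPM in WT mice 1 to 5. For Acss2 the KO values were 395, 266, 285, 294 and 305 CPM and the WT values 515, 362, 191, 299 and 328 CPM, in the same order of mice. In both genes WT 1 was the highest mouse, WT 3 the lowest, and all KO mice fell inside the WT range. The log2 fold change was -0.15 for Acly (SE 0.27, 95% interval -0.73 to 0.43, adjusted p = 0.896) and -0.14 for Acss2 (SE 0.20, -0.58 to 0.31, adjusted p = 0.874).

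Me1, a source of NADPH outside the pentose phosphate pathway, had 322, 178, 225, 237 and 298 CPM in KO mice 1 to 5 and 381, 243, 124, 240.4 and 320.0 CPM in WT mice 1 to 5. Again the KO values sat inside the WT range. Group means of 252.2 ± 58.0 and 262 ± 96.8 CPM (SD, n = 5 each) gave a log2 fold change of -0.053 (SE 0.25, 95% interval -0.59 to 0.48, adjusted p = 0.970).

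The carboxylase isoforms had fold changes of opposite sign, neither past the adjusted threshold. Acaca had 2823, 1507, 1561, 1895 and 2274 CPM in KO mice and 3651, 2454, 1138, 2264 and 1856 CPM in WT mice 1 to 5, with a log2 fold change of -0.18 (SE 0.26, 95% interval -0.74 to 0.39, adjusted p = 0.869). Acacb had 2474, 1764, 1269, 1982 and 2501 CPM in KO mice and 1799, 1639.9, 1759, 1693 and 1639 CPM in WT mice 1 to 5. The WT values of Acacb were the tightest of the 10 genes, with a coefficient of variation of 4.19% beside 25.8% in KO mice. Of the KO mice, 3 were above every WT mouse, KO 2 lay within the WT range and KO 3 was below every WT mouse. The mean was 1998 ± 516 CPM in KO and 1706 ± 71.5 CPM in WT mice (SD, n = 5 each), a log2 fold change of 0.23 (SE 0.15, 95% interval -0.10 to 0.55, adjusted p = 0.682, exact permutation p = 0.286). Single KO mice moved this value in either direction. The log2 fold change was 0.35 without KO 3, past an unadjusted threshold of 0.05 but not the adjusted one (edgeR adjusted p = 0.155), and it was 0.14 without KO 1 and 0.13 without KO 5.

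Mid1ip1 encodes a small protein that promotes the assembly of acetyl-CoA carboxylase into active filaments. Its values were 95.8, 61.5, 68.3, 59.0 and 68.5 CPM in KO mice 1 to 5 and 133, 91.0, 37.5, 55.9 and 59.3 CPM in WT mice 1 to 5. The WT group had the largest coefficient of variation of the 10 genes, 49.95%, and enclosed the KO group. The log2 fold change was -0.095 (SE 0.28, 95% interval -0.69 to 0.50, adjusted p = 0.942). An antisense transcript overlaps 25.5% of the exon bases of Mid1ip1 but had 0 counts in all 10 libraries.

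Among the transcription factors, Srebf1 had 482, 393, 390.4, 406 and 415 CPM in KO mice 1 to 5 and 553, 494, 339, 348 and 380.2 CPM in WT mice 1 to 5. The KO mice clustered in the middle of the WT range, and the means of 417 ± 37.6 and 423 ± 95.4 CPM (SD, n = 5 each) were nearly equal (log2 fold change -0.020, SE 0.13, 95% interval -0.30 to 0.26, adjusted p = 0.981). The interval for this gene was among the narrower ones, between 0.810 and 1.20 as a fold. Reads of the SREBP-1a and SREBP-1c transcripts are summed in the gene count, and the processing of the protein is not seen in RNA. Mlxipl had 225, 154, 132, 161 and 194 CPM in KO and 206, 163, 135, 171 and 156 CPM in WT mice 1 to 5. Both ends of its range, KO 1 and KO 3, were KO mice (log2 fold change 0.055, SE 0.14, 95% interval -0.25 to 0.36, adjusted p = 0.932). The gene count likewise does not separate the α and β forms of ChREBP.

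Nr1h3 was the most even of the genes over mice, with a highest value 1.36 times the lowest. KO mice 1 to 5 had 87.6, 90.9, 76.5, 76.3 and 96.4 CPM, and WT mice 1 to 5 had 74.4, 80.2, 71.0, 71.5 and 76.6 CPM. All 5 KO mice were above the WT median and 3 were above every WT mouse, while KO 3 and KO 4 lay within the WT range. The means were 85.5 ± 8.92 CPM in KO and 74.7 ± 3.80 CPM in WT mice (SD, n = 5 each), a fold of 1.14 with a 95% interval of 1.02 to 1.28. On the log2 scale the difference was 0.19 (SE 0.074), with an unadjusted edgeR p = 0.0223 that did not survive adjustment over all genes (adjusted p = 0.571), and an exact permutation p = 0.0556. The unadjusted call was lost when KO 2, KO 5, WT 3 or WT 4 was left out, with log2 fold changes of 0.15 to 0.23 over all such fits. With the mean log2 CPM of the skeletal muscle markers as a covariate, the log2 fold change was 0.16 (SE 0.086). The gene then no longer passed the unadjusted threshold (edgeR adjusted p = 0.751).

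**Figure D2:**
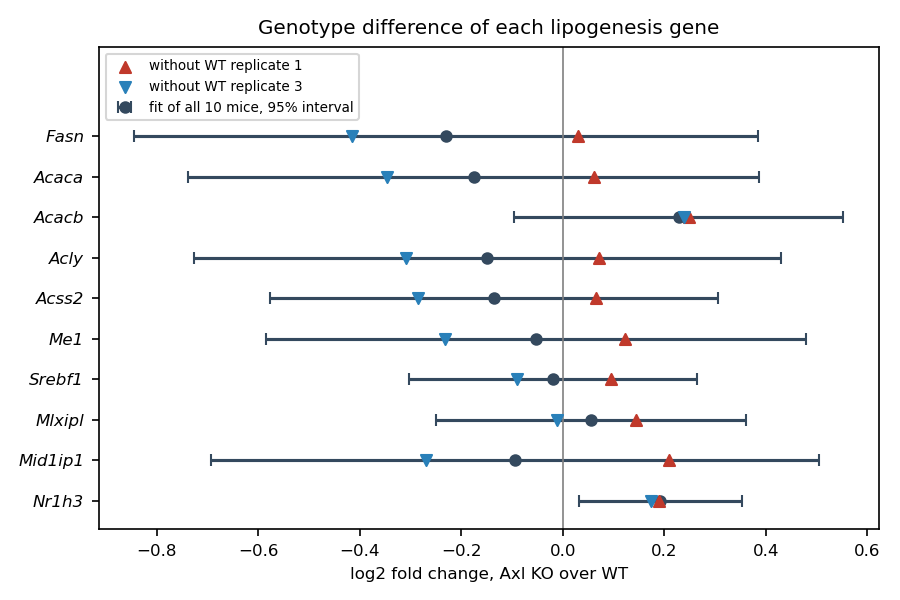
Log2 fold change (Axl KO over WT, edgeR) of each lipogenesis gene from all 10 mice (dark points, bars: 95% interval), and refitted without WT 1 (red triangles up) or without WT 3 (blue triangles down). The intervals of 9 genes cross 0, that of Nr1h3 spans 0.032 to 0.35, and without WT 1 all 10 values are above 0.

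The direction of the group depended on single mice, most of all on WT 1. Without KO 2, 5 members were higher and 5 lower in KO mice. Without WT 1, all 10 genes had a positive log2 fold change with a median of 0.11, that of Fasn being 0.030. Without WT 3, 8 were lower in KO mice and the median was -0.25, with Fasn at -0.41. None of the 10 lipogenesis genes passed an adjusted p of 0.05 in any of the 10 fits that left out a mouse, the lowest being 0.155 for Acacb. WT 1 was the highest of the 10 mice in 7 of the genes and WT 3 the lowest in 8. The other extremes were KO 5, the highest in Acacb and Nr1h3, KO 1, the highest in Mlxipl, and KO 3, the lowest in Acacb and Mlxipl. The SD was larger among WT mice in 7 genes and larger among KO mice in Acacb, Mlxipl and Nr1h3, a difference in spread for which no test was run.

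For most of the members this spread between mice was large for genes of such levels. Fasn varied 3.61-fold between the highest and the lowest mouse, Mid1ip1 3.56-fold, Acaca 3.21-fold, Me1 3.08-fold, Acly 2.93-fold and Acss2 2.69-fold. Acacb, Mlxipl, Srebf1 and Nr1h3 varied less, between 1.97-fold and 1.36-fold. Within genotype, the SD of log2 CPM of Fasn was 0.566, at percentile 98.5 among the 3335 genes with a mean above 50 CPM, whose median SD was 0.110. Acaca, Acly, Mid1ip1, Me1 and Acss2 were at percentiles 96.8 to 98.3 of the same genes. Acacb, Mlxipl and Srebf1 were still at percentiles 92.9, 91.7 and 90.0, and Nr1h3 at percentile 56.5.

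Each library gives a ratio between a pair of genes that needs no scaling between mice. The ratio of Acacb to Acaca counts was 0.877, 1.17, 0.813, 1.05 and 1.10 in KO mice 1 to 5 and 0.493, 0.668, 1.55, 0.748 and 0.883 in WT mice 1 to 5. All 5 KO mice were above the WT median, but WT 3 had the highest ratio of all. The means were 1.00 ± 0.151 in KO and 0.868 ± 0.405 in WT mice (SD, n = 5 each), a log2 difference of 0.30 with a two-sided exact permutation p = 0.349, when the smallest p this design allows is 0.00794. Without WT 3 the log2 difference was 0.54 with an exact permutation p = 0.0476, so 1 mouse decided the call. The ratio of Mlxipl to Srebf1, between 0.338 and 0.466 in KO and between 0.331 and 0.492 in WT mice, differed by 0.040 on the log2 scale (exact permutation p = 0.778).

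**Figure D3:**
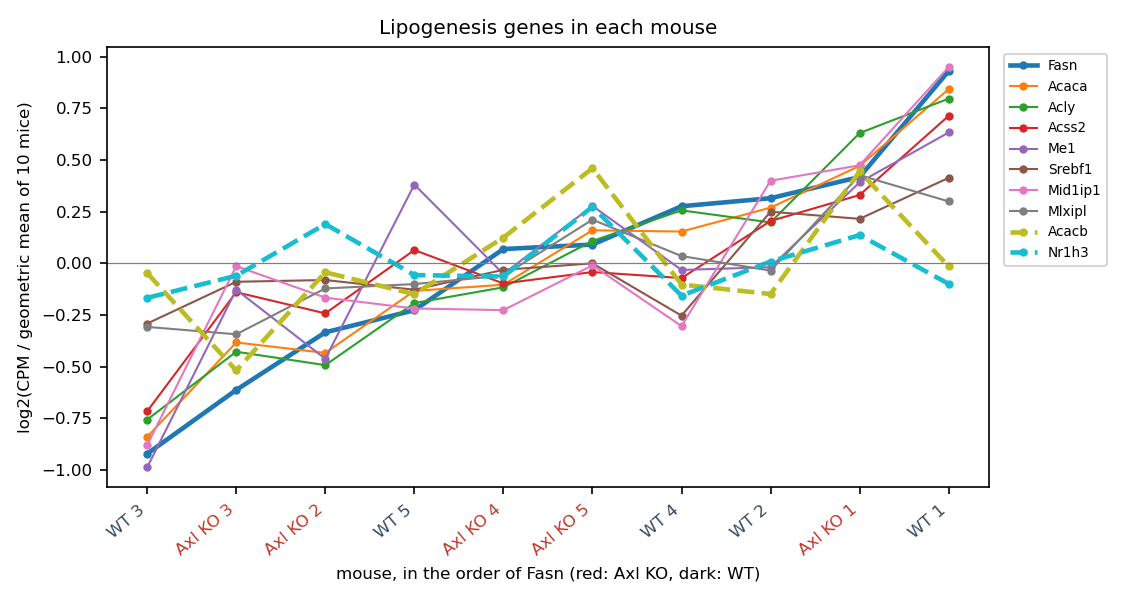
Log2 of CPM over the geometric mean of the 10 mice for each lipogenesis gene (lines), with the mice ordered by Fasn from WT 3 to WT 1. The thin lines of 7 genes climb with Fasn (thick blue) across KO and WT mice alike, and the dashed lines of Acacb and Nr1h3 do not.

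Over the 10 mice, most of the lipogenesis genes covaried. Of the 45 pairs, 27 covaried with an adjusted p of 0.05 or less (Pearson's r of log2 CPM, permutation test, adjusted over the 45 pairs), and 21 by Spearman's rho. The same count for pairs of other genes is not given here, so how unusual these numbers are cannot be read from them. The same number, 27, passed after the mean of each mouse's genotype was subtracted. Without WT 1 the number was 18 and without WT 3 it was 19. Setting aside Acacb and Nr1h3, a grouping made after the values were seen, 26 of the 28 pairs among the other genes passed, with r from 0.67 to 0.99 and a median of 0.86. The exceptions were Me1 with Srebf1 (r = 0.67, adjusted p = 0.0515) and Srebf1 with Mlxipl (r = 0.68, adjusted p = 0.051).

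The closest were the enzymes of the main line. Acaca and Acly had r = 0.99 (permutation p = 1e-05, the smallest the permutations can give, adjusted p = 0.000337) and rho = 0.96 (p = 7e-05, adjusted p = 0.000787), and r stayed at 0.98 without WT 1 and WT 3, the mice farthest from the median. Fasn and Acaca had r = 0.98 (permutation p = 3e-05, adjusted p = 0.000337) and rho = 0.98 (p = 4e-05, adjusted p = 0.00075), and r = 0.93 without these mice. Fasn and Acly had r = 0.96 and rho = 0.98, with the same permutation p-values, and r = 0.92 without them. In contrast, the relation of Fasn to Srebf1 (r = 0.78, permutation p = 0.007, adjusted p = 0.015, rho = 0.77, p = 0.0122, adjusted p = 0.0286) came to r = 0.48 when WT 1 and WT 3 were left out. That of Fasn to Mlxipl (r = 0.85, permutation p = 0.00201, adjusted p = 0.00603, rho = 0.93, p = 0.00032, adjusted p = 0.00255) was r = 0.80 without them. Fasn with Me1 and with Mid1ip1 went from r = 0.80 and 0.83 to 0.43 and 0.46, so these relations, as that to Srebf1, rest largely on the mice at the ends. Srebf1 was closest to Mid1ip1 (r = 0.95, permutation p = 3e-05, adjusted p = 0.000337, rho = 0.90, p = 0.00075, adjusted p = 0.00375, r = 0.90 without WT 1 and WT 2).

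**Figure D4:**
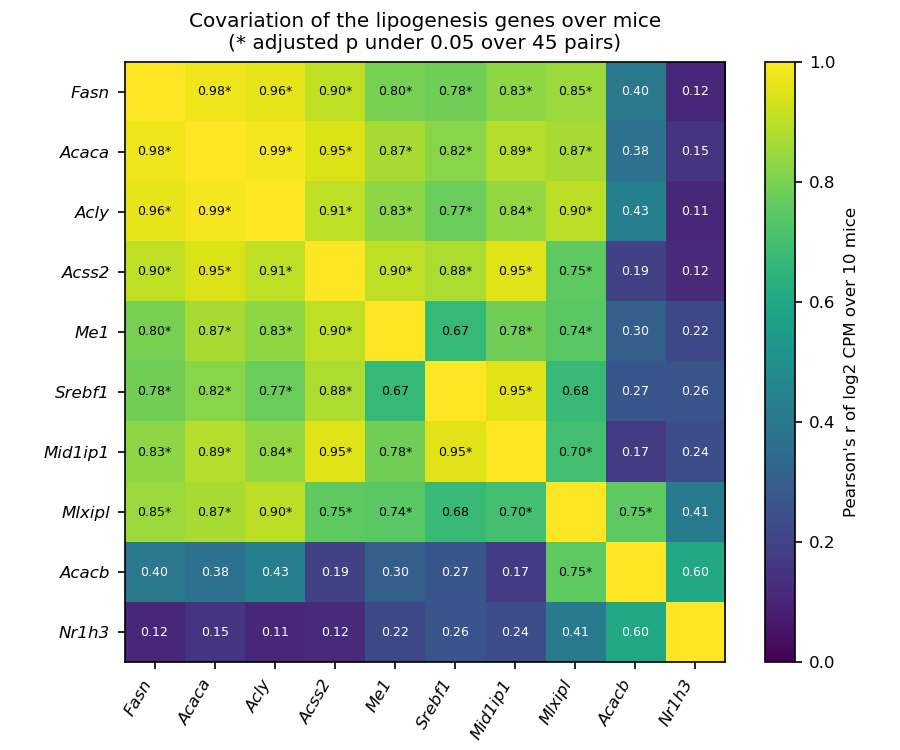
Pearson's r of log2 CPM over the 10 mice for each pair of lipogenesis genes (colour and number), with a star where the adjusted permutation p over 45 pairs is under 0.05. The block from Fasn to Mlxipl runs from 0.67 to 0.99, while the rows of Acacb and Nr1h3 carry 1 star, for Acacb with Mlxipl.

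Acacb and Nr1h3 stood outside this group. Of their 17 pairs 1 passed, Acacb with Mlxipl (r = 0.75, permutation p = 0.0116, adjusted p = 0.021, r = 0.50 without KO 1 and KO 5), and by Spearman's rho it did not (rho = 0.65, p = 0.049, adjusted p = 0.0817). Acacb had r = 0.38 with Acaca (permutation p = 0.277, adjusted p = 0.367) and r = 0.40 with Fasn. Nr1h3 had r between 0.11 and 0.60 with the other genes. Ranked by r with Fasn within genotype among 13738 genes, Acaca was at place 2, Acly at 7, Acss2 at 35, Mlxipl at 66, Mid1ip1 at 113, Me1 at 179 and Srebf1 at 208, whereas Acacb was at place 1637 and Nr1h3 at 3331. The median r with Fasn over all genes was -0.013, and 1.40% had an r above 0.8. These ranks describe 10 mice whose genes share library and depth, and no p is given for them.

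Markers of other cell types and library measures were set beside the Fasn level of each mouse, a check chosen after the data were seen. None of the 10 measures had an adjusted permutation p of 0.05 or less. The lowest was the mitochondrial share of counts (r = -0.68, permutation p = 0.0299, adjusted p = 0.299, rho = -0.44, p = 0.205, adjusted p = 0.983), and r was 0.30 without WT 1 and WT 3. The summed skeletal muscle markers had r = 0.0038 with Fasn. All 15 muscle markers had lower KO means (median log2 fold change -1.03), with summed levels of 24.6 to 10030 CPM in KO and 2058 to 10683 CPM in WT mice, and 0 of 15 passed an unadjusted p of 0.05 in edgeR. The 8 fibroblast and matrix markers had lower KO means too (median -0.32), 2 of them, Col1a1 and Col1a2, at an unadjusted p of 0.05, beside 3.86% of all genes in that direction. Of the 10 brown adipocyte markers 9 had higher KO means and 5 passed an unadjusted p of 0.05, all higher, beside 4.54% of all genes. Their median was 0.094, with summed levels of 8679 to 11797 CPM in KO and 6799.9 to 8970.2 CPM in WT mice. For 2 of the 10, Dio2 and Cox8b, every KO mouse was above every WT mouse, beside 1.35% of all genes without overlap in either direction. The adipocyte, macrophage, endothelial and erythroid lists had medians between -0.043 and 0.057 and the white fat list one of -0.37, and no B and T cell or mammary marker reached the level for testing. The part of these differences in the values of Acacb and Nr1h3 was not tested beyond the muscle covariate given for Nr1h3, under which Acacb had a log2 fold change of 0.22. Fewer cells of a type and less RNA per cell cannot be told apart in whole tissue.

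The 250 bases before the RefSeq transcription starts of the 10 genes (GRCm38.p6) were searched on both strands for the letters of motifs known for this pathway. These were TCACNCCAC (the core of a sterol response element, read by SREBP), CACGTG (an E-box, read by SREBP and, in pairs, by ChREBP), CCAAT (read by NF-Y) and GGGCGG (a GC box, read by Sp1). RefSeq lists 15 starts for the 10 genes, and the start with most annotated transcripts within 100 bases was used (of equals, the first along the chromosome). The starts used for Fasn and Acly are the 5′ ends of the annotated genes and that of Acss2 is near it, whereas those of the other 7 genes lie inside the annotated gene. The other listed starts, of Me1, Srebf1, Mlxipl and Nr1h3, were searched as well. The following are printed 5′ to 3′ on the gene's strand, with matches in capitals. The choice was made with the covariation known. It holds an enzyme pair that covaried closely (Fasn, Acly), the SREBP-1 and ChREBP genes, and Nr1h3, which did not follow them.
Fasn, chr11:120824548-120824797, reverse strand: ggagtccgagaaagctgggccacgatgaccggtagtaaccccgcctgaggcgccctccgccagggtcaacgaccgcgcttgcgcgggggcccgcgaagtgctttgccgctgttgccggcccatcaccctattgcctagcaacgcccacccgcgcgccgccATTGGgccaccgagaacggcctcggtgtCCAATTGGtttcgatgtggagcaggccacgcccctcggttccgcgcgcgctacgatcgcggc
Acly, chr11:100528001-100528250, reverse strand: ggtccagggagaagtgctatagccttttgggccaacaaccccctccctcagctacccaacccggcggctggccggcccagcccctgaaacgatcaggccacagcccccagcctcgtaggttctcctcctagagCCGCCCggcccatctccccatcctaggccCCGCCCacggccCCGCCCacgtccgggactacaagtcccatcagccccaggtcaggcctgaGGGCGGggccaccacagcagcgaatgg
Srebf1, chr11:60210472-60210721, reverse strand: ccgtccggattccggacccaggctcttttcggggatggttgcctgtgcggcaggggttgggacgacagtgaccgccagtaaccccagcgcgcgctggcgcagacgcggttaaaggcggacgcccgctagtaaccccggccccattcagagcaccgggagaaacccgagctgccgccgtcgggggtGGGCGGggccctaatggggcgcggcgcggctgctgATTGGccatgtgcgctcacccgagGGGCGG
Mlxipl, chr5:135106641-135106890, forward strand: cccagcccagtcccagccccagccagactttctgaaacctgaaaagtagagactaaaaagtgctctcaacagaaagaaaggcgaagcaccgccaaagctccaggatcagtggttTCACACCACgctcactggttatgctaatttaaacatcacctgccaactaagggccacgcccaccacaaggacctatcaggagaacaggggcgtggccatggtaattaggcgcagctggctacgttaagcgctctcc
Nr1h3, chr2:91195117-91195366, reverse strand: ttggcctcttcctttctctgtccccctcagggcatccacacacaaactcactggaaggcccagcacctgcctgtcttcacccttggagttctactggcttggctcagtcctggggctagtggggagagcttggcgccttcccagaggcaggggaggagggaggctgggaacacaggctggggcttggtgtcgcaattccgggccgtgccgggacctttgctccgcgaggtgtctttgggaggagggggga

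The Fasn stretch holds 3 CCAAT matches, a pair of which overlap in the run CCAATTGG, and the Acly stretch holds 4 GC boxes. Srebf1 has 1 CCAAT match and 2 GC boxes. The one TCACNCCAC match among the 10 genes is in Mlxipl. In the Nr1h3 stretch none of the searched letters were found. The same held for the stretch of Acaca, which covaried closely with Fasn and Acly. Acacb, which stood outside that group, has 1 CCAAT match. Whether these letters bear on the covariation was not tested. Over the 10 genes, CCAAT occurred in 5 and GGGCGG in 4, beside 33.8% and 32.7% of all 32851 promoters of this length, TCACNCCAC in 1 beside 1.05%, and CACGTG at none of the starts used beside 6.02%. Over all 15 starts, CCAAT and GGGCGG each occurred at 7 and in 6 genes, and CACGTG at 1, the upstream start of Mlxipl, which also holds 1 CCAAT match and 2 GC boxes. The Fasn, Acly, Srebf1, Mlxipl and Nr1h3 stretches are 69.2%, 68.8%, 70.8%, 53.2% and 63.2% G and C, against a median of 52.4% over all promoters. A match describes letters in this window only.

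**Figure D5:**
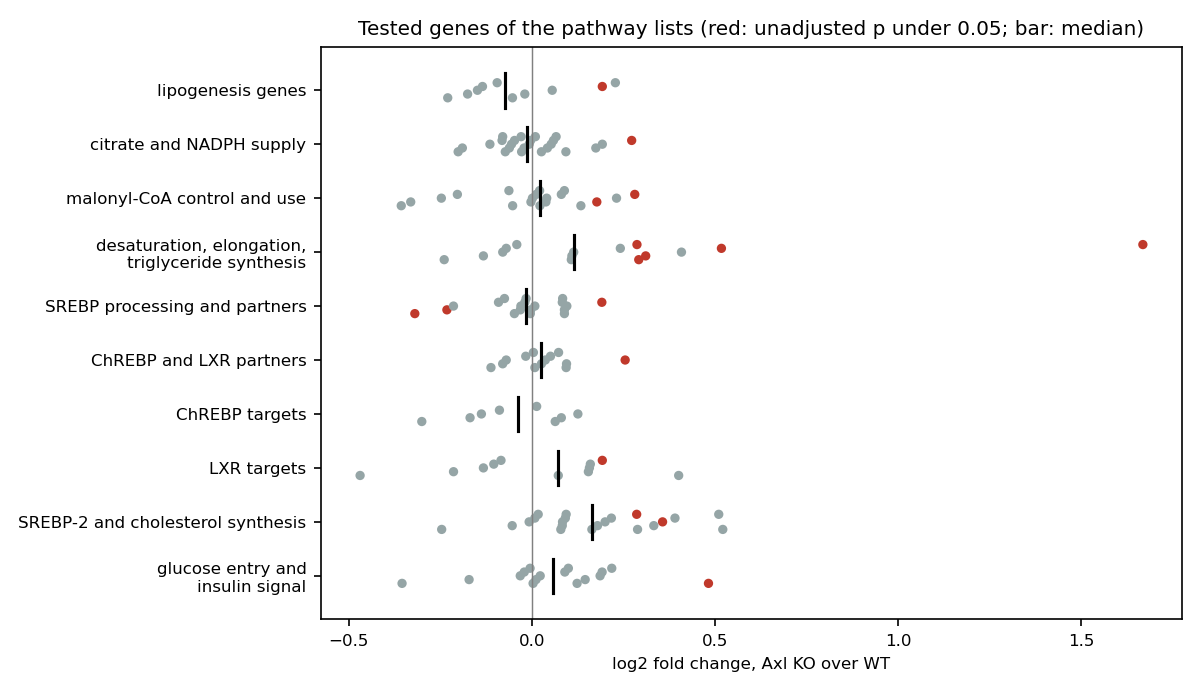
Log2 fold change (Axl KO over WT, edgeR) of the tested genes of the lipogenesis group and 9 lists of genes around it (points, red: unadjusted p under 0.05, black bar: median). Medians lie between -0.074 for the lipogenesis genes and 0.16 for the genes of SREBP-2 and cholesterol synthesis, and Elovl3 stands apart at 1.67.

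The genes that feed, use or control the pathway were taken as 9 lists, and 0 of their members passed an adjusted p of 0.05 in edgeR. Of 24 genes of citrate and NADPH supply, 10 were higher and 14 lower in KO mice. Their median log2 fold change was -0.014, with 1 gene higher at an unadjusted p of 0.05, beside 4.54% of all genes in that direction. This was Mpc2, a subunit of the mitochondrial pyruvate carrier (0.27, SE 0.11, exact permutation p = 0.0714, edgeR adjusted p = 0.571), and the lower gene with the lowest p was Pgls of the pentose phosphate pathway (-0.11, SE 0.077, adjusted p = 0.683). The list varied with Fasn over mice, with a median r of 0.51 within genotype. Slc25a1, the carrier that brings citrate out of mitochondria for Acly, had r = 0.89 with Fasn (permutation p = 0.00094, adjusted p = 0.0094 over 10 relations, rho = 0.89, p = 0.00121, adjusted p = 0.0121, r = 0.67 without WT 1 and WT 3). Its means were 262 ± 52.4 CPM in KO and 298 ± 99.3 CPM in WT mice (SD, n = 5 each), a log2 fold change of -0.19 (SE 0.22, adjusted p = 0.822).

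For the control and use of malonyl-CoA, 12 of 19 tested genes were higher, beside 49.8% of all genes tested, and the median was 0.021. An unadjusted p of 0.05 was passed by 2, both higher, beside 4.54% of all genes in that direction. Mlycd, the malonyl-CoA decarboxylase that removes the product of Acaca and Acacb, had 122 ± 19.6 CPM in KO and 100.3 ± 7.28 CPM in WT mice (0.28, SE 0.10, exact permutation p = 0.0397, edgeR adjusted p = 0.571). The other was Prkaa1, a catalytic subunit of AMPK, the kinase that inhibits both carboxylases (0.18, SE 0.077, exact permutation p = 0.0635, edgeR adjusted p = 0.579). Prkab2, another subunit of AMPK, was at -0.20 (SE 0.13, adjusted p = 0.665). Thrsp, the paralog of Mid1ip1, was measured at 1706 ± 482 and 1613 ± 261 CPM (0.080, SE 0.18, adjusted p = 0.918). Over mice Thrsp had r = 0.76 with Fasn (permutation p = 0.00989, adjusted p = 0.0445, rho = 0.84, p = 0.00368, adjusted p = 0.0184) and r = 0.87 without WT 1 and WT 3.

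After Fasn, palmitate is elongated, desaturated and built into triglyceride. Here 10 of 15 tested genes were higher in KO mice, the median was 0.11, and 5 passed an unadjusted p of 0.05, all higher: the elongases Elovl3 and Elovl5, the acyltransferases Gpam and Agpat2, and Lpin2. The share over all genes in that direction was 4.54%. Elovl3 is also one of the brown adipocyte markers, of which 5 of 10 were higher at the same threshold, and their part in these values was not tested. Lpin2, a phosphatidate phosphatase, had every KO mouse (30.0 to 37.8 CPM) above every WT mouse (25.0 to 29.4 CPM). Its log2 fold change was 0.31 (SE 0.079, exact permutation p = 0.00794, edgeR adjusted p = 0.571). It was 1 of 15 tested genes without overlap, beside 1.35% of all genes in either direction. Fads2, a desaturase, was at -0.24 (SE 0.18, adjusted p = 0.736). Elovl6, which elongates palmitate, was at 0.41 (SE 0.27, adjusted p = 0.682) and had r = 0.75 with Fasn over mice (permutation p = 0.0134, adjusted p = 0.0445, rho = 0.78, p = 0.0101, adjusted p = 0.0338, r = 0.65 without WT 1 and WT 3). Scd1, the main desaturase, was at -0.13 (SE 0.23, adjusted p = 0.893) with r = 0.43 (permutation p = 0.213, adjusted p = 0.356), which was -0.49 without WT 1 and WT 3.

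Among the partners of the transcription factors, Mlx, the protein with which ChREBP binds DNA as a dimer, had 43.5, 39.98, 38.9, 36.5 and 43.1 CPM in KO mice 1 to 5 and 34.3, 36.4, 31.0, 34.6 and 33.0 CPM in WT mice 1 to 5. Every KO mouse was above every WT mouse, in 1 of 13 tested genes of the list, beside 1.35% of all genes without overlap in either direction. The log2 fold change was 0.25 (SE 0.067, unadjusted edgeR p = 0.00237, adjusted p = 0.571, exact permutation p = 0.00794). Mlxip (MondoA), the paralog of ChREBP, was at -0.070 (SE 0.073, adjusted p = 0.805), Nr1h2, which encodes LXRβ, at 0.094 (SE 0.083, adjusted p = 0.763), and Ogt, which modifies ChREBP, at -0.11 (SE 0.086, adjusted p = 0.735). Of the 13 tested genes of this list 9 were higher, with a median of 0.026. Mlx had r = 0.22 with Fasn over mice (permutation p = 0.547, adjusted p = 0.782). Within genotype its r with Fasn was 0.61, for which no p was computed.

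SREBP processing gave 7 higher and 12 lower genes of 19, with a median of -0.016. At an unadjusted p of 0.05, 1 gene was higher and 2 were lower, beside 4.54% and 3.86% of all genes. Subunits of NF-Y, the partner of SREBP on its target promoters, were on both sides, Nfyc at 0.19 (SE 0.068, exact permutation p = 0.0397) and Nfya at -0.23 (SE 0.080, exact permutation p = 0.0159), each with an adjusted p of 0.571. The third gene was Erlin1, at -0.32. Scap, which escorts SREBP to the Golgi, was at 0.089 (SE 0.063, adjusted p = 0.705), and Insig1, which retains it, at 0.0080 (SE 0.17, adjusted p = 0.997). Srebf2, the factor of the cholesterol pathway, was at -0.048 (SE 0.11, adjusted p = 0.920), with r = 0.62 to Fasn over mice (permutation p = 0.0535, adjusted p = 0.134).

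Among target genes, 4 of 8 tested ChREBP targets and 6 of 11 tested LXR targets were higher, with medians of -0.038 and 0.072. The LXR list includes Nr1h3 itself, its only gene with an unadjusted p of 0.05 or less, beside 4.54% of all genes as higher. The named ChREBP targets were Pnpla2, the triglyceride lipase ATGL, at 0.13 (SE 0.084, adjusted p = 0.682) and Arrdc4 at -0.30 (SE 0.18, adjusted p = 0.658), and the LXR target Arl4c was at -0.47 (SE 0.32, adjusted p = 0.689) from 0.728 to 3.00 CPM over the mice. The liver genes of these lists, Pklr, Abcg5, Abcg8 and Cyp7a1, had 0 counts in all 10 mice.

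For cholesterol synthesis under SREBP-2, 18 of 21 genes were higher, beside 49.8% of all genes tested, with a median of 0.16, and 2 passed an unadjusted p of 0.05 as higher, beside 4.54% of all genes. Fdps was at 0.29 (SE 0.12, exact permutation p = 0.0794, edgeR adjusted p = 0.571) and Fdft1, the first enzyme committed to sterols, at -0.25 (SE 0.15, adjusted p = 0.666). Its median r with Fasn over mice, 0.72 within genotype, was the highest of the 9 lists. For glucose entry and the insulin signal, 11 of 16 tested genes were higher, with a median of 0.056. Pfkp, a phosphofructokinase subunit, had all KO mice (149.5 to 254 CPM) above all WT mice (103 to 149.4 CPM). Its log2 fold change was 0.48 (SE 0.15, exact permutation p = 0.00794, edgeR adjusted p = 0.571). It was 1 of 16 tested genes without overlap, beside 1.35% of all genes in either direction. The muscle isoform Pfkm was at -0.35 (SE 0.18, adjusted p = 0.602).

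Outside the lists, the 5 genes whose pattern over mice was most like that of the 10 lipogenesis genes had a mean r with them of 0.80 to 0.81 within genotype (n = 10 mice). They were Tmem120b, Ripor2, Jag1, Gbe1 and Psmc2. Tmem120b had 40.8 CPM in WT 3 and 83.7 CPM in WT 1, the mice at the ends of the Fasn order, and r = 0.96 with Fasn. Gbe1, the branching enzyme of glycogen synthesis, had r = 0.95 with Fasn and ran from 339 CPM in WT 3 to 455 CPM in WT 1. None of the 5 differed between genotypes by the adjusted test, with log2 fold changes of -0.086 to 0.26 and adjusted p-values of 0.788 to 0.998 (edgeR).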

How the data were processed

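Per the labels, the libraries were made from polyA RNA with a TruSeq kit, while the study's methods describe depletion of ribosomal RNA. The submitters' processing notes name Trimmomatic 0.36, STAR 2.6.1c and the build GRCm38.p5, and the methods name hisat2. The counting tool, strand setting and annotation release are not given in the sources used here. The authors deposited 1 table of raw counts per gene and mouse.

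Symbols, positions and exon lengths came from GENCODE M21 (GRCm38), which held 41163 of the 41249 identifiers. Genes with a mean above 1 CPM were tested with edgeR 4.0.16 (R 4.3.3) by its quasi-likelihood test after TMM normalization, with Benjamini-Hochberg adjustment over 13739 genes. The SE of a log2 fold change is its size divided by the root of the F statistic. Intervals use the total degrees of freedom of the fit, residual plus prior. For single values the exact permutation test was two-sided, and correlations over mice used 100000 permutations. RPKM was computed from merged exons. Scripts were tested on simulated data. The 10 members, the gene lists and the tests were chosen with earlier results of these data known. The genes named were the members, per list the higher and the lower gene with the lowest p, 10 partner and target genes, and the 5 genes with the highest mean r with the members within genotype, while others are named as exceptions after their values were seen. Hsd17b8 and Aldoa could not be matched and were left out. Alternatives were other size factors (RLE), filters and a robust fit, DESeq2 1.42.0, a replicate block, protein-coding genes alone, a muscle covariate and each mouse left out in turn.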

Additional observations from a re-analysis of the deposited data

Results flagged for a closer look

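In groups of 5 mice, 4 values lay apart from the rest of their group by more than 0.71 of the group's range (Dixon's limit), of 92 groups examined, where chance gives about 4.6. KO 1 was high among the KO mice in Srebf1, at 482 CPM with the nearest mouse at 415 (0.728 of the range), and in Mid1ip1, at 95.8 CPM with the nearest at 68.5 (0.741). WT 3 was low among the WT mice in Pfkp, at 103 CPM with the nearest at 138 (0.766), and in Nr1h2, at 37.5 CPM with the nearest at 41.4 (0.904).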

How the results depend on the processing

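The count of 0 lipogenesis genes past the adjusted threshold held under every alternative run. DESeq2 called 9 of all genes in place of 1. The number of lipogenesis genes at an unadjusted p of 0.05 was 0 with the muscle covariate and ranged from 0 to 2 when single mice were left out. Leaving out 1 mouse at a time turned the sign of 8 genes: the log2 fold change ranged from -0.41 to 0.030 for Fasn, -0.35 to 0.061 for Acaca, -0.36 to 0.071 for Acly, -0.29 to 0.065 for Acss2, -0.23 to 0.12 for Me1, -0.090 to 0.096 for Srebf1, -0.057 to 0.14 for Mlxipl and -0.27 to 0.21 for Mid1ip1. Acacb (0.13 to 0.35) and Nr1h3 (0.15 to 0.23) stayed positive. The log2 difference of the Acacb to Acaca ratio ranged from 0.13 to 0.54 and that of Mlxipl to Srebf1 from -0.026 to 0.12. The causes were not tested. Over all genes tested, the replicate numbers did not pair the mice: the correlations of same-numbered mice were -0.18, 0.37, 0.030, 0.034 and -0.36, and 1 of 5 KO mice correlated best with its own number. Among the members the numbers lined up in part. Replicate 1 was the highest mouse of both genotypes in Fasn, Acaca, Acly, Acss2, Me1, Srebf1, Mlxipl and Mid1ip1. In Acacb and Nr1h3 the highest KO mouse was KO 5. For Fasn, replicate 3 was the lowest mouse of both genotypes. Whether the numbers mark mice handled together was not tested. With the numbers as a replicate block, 1 gene was called in all, the median of the lipogenesis genes was 0.0051, and Me1 (0.0058), Srebf1 (0.0044) and Mid1ip1 (0.012) changed sign. Of the members, 6 were then higher in KO mice and 4 lower. The SE of Fasn was 0.15 with the block and 0.28 without it, and that of Acacb was 0.14 and 0.15. With 5 mice a group the intervals stay wide, for Fasn from 0.557 to 1.31 as a fold.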
